A study of Lymantria dispar dispar and Lymantria dispar asiatica with 30 samples.

Results

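The 4 Osiris rows of the pupal expression table had their highest levels in spongy moth pupae on day 8 after pupation, when all 3 pupae of the Asian strain held them at high level and the 3 European pupae held few or no reads. On the other days no pupa held more than 18 reads of a row, except European replicates 1 and 3 of day 5, which held up to 59 and 166. They are 4 of the 19654 genes in the table and carry putative names: Lda.6827's and Lda.35031's annotation is osiris 18, Lda.35510's is osiris 20, and Lda.35030's is Osiris without a number. Below, osiris 18 without further words is Lda.35031's row, Lda.6827's is called the other osiris 18 row, and Lda.35030's the unnumbered Osiris row. They were chosen by their day 8 strain difference and by its change over days in these same libraries. Differences between the strains, and changes into or out of day 8, are therefore given as a description with no test. Changes between the other days, averaged over the strains, were not used in the choice and were tested.

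Each library was the polyadenylated RNA of 1 whole female pupa. The Asian spongy moths (ASM, strain RM in the labels) and the European spongy moths (ESM, strain CT) were sampled on pupal days 1, 3, 5, 8 and 11, with 3 pupae in each of the 10 groups and no treatment. Each strain stood for 1 laboratory colony, reared from pooled eggs on a wheat germ diet whose iron phosphate was set for that colony, so strain, colony and diet cannot be told apart. The pupae were homogenised whole, so fewer cells expressing a gene and less RNA per cell cannot be told apart either, and nothing in the data says which tissue the Osiris reads came from. Levels are normalised counts, that is, reads recovered from the deposited values and divided by the size factor of the library. The libraries held 2638290 to 10808864 recovered reads. A count of 0 allows up to 3 reads, and intervals and limits cover counting error only.

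Osiris genes are an insect gene family known best from Drosophila, where most of them lie side by side in a cluster. They encode secreted or membrane-associated proteins, and many are switched on briefly in epidermal, tracheal and sensory cells while those cells lay down cuticle. The Drosophila member gore-tex is needed for the pores in the cuticle of olfactory bristles. What the moth genes do in pupae is less well known.

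The study placed the transcription starts of osiris 18 and osiris 20 on genome contigs, and the stretches just before them are shown because these rows carried the day 8 signal. Both are written 5′ to 3′ toward the gene and end at the initiator named by the study (ACATTG for osiris 18 and TCATTG for osiris 20). They were read from the study's alignment of genome assemblies, with no contig coordinates. Capitals mark the TATA box letters TATAAA and TCACGTAT, the longest run of letters that the windows have in common.

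osiris 18, ASM contig tig00037198: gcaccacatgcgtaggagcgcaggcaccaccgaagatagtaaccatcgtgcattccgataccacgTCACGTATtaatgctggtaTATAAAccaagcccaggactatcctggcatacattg

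osiris 20, ASM contig tig00036830: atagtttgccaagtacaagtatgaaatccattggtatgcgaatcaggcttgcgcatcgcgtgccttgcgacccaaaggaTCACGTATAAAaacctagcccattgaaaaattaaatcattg

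Each window is 120 bases long, and its letters were the same in the ESM assembly. TATAAA stood once in each, 24 bases before the initiator, and was not found on the reverse strand. TCACGTAT ended 11 bases before the TATA box of osiris 18 and overlapped that of osiris 20 by 3 letters, so it was found by comparing these windows and not by a search for a known site. Over 48 windows of this length cut from the ASM stretches of osiris 18, osiris 20 and takeout, 35.4% held TATAAA on either strand and 4.17% (2 windows) held TCACGTAT. Those 2 windows hold the very copies from which the run was found, so their share was fixed in advance and is not a background rate. Across the whole stretch of osiris 18, 5 of 1979 aligned bases differed between ASM and ESM, and in osiris 20 1 of the 264 bases that could be aligned differed. A match of letters is a description and not a binding site.

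On day 8, Lda.6827's normalised counts (the other osiris 18 row) were 5070, 2635 and 449.7 in ASM replicates 1, 2 and 3. In the ESM pupae of that day the same row had 0, 34.1 and 1.41. Every ASM pupa stood above every ESM pupa, and the lowest ASM value was 13.2-fold the highest ESM value (95% counting interval 9.37 to 19.1). The group means were 2718 ± 2311 (SD, n = 3) and 11.8 ± 19.3 (SD, n = 3).

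Lda.35031's normalised counts (osiris 18) were 4083, 3205 and 390.7 in the ASM pupae of day 8. Its ESM pupae had 0, 16.6 and 0. The gap between the lowest ASM and the highest ESM pupa was 23.6-fold (14.6 to 40.8). Against the ESM pupae without a read, the ASM levels were at least 85.6-fold higher, counting 3 reads as the limit for the library at 0.

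Lda.35510's normalised counts (osiris 20) were 4477, 2376 and 324.1 in ASM and 0, 14.6 and 0 in ESM. Its lowest ASM pupa was 22.2-fold above the highest ESM pupa (13.3 to 40.0). This row had the widest spread among the ASM pupae of the 4, with replicate 1 at 13.8-fold replicate 3.

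Lda.35030's normalised counts (the unnumbered Osiris row) were 682.9, 542.9 and 56.7 in ASM. Its ESM values were 0, 2.92 and 0, the middle one being 3 reads. Lowest ASM over highest ESM came to 19.4, with an interval from 6.38 to 96.2 because of those 3 reads. For all 4 rows the groups did not overlap on day 8. Every ASM pupa also stood above every ESM pupa at 18.9% of the 11584 genes with a normalised count of at least 50 in at least 2 libraries, but the Osiris rows were picked for this difference and nothing is read from the count.

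The order of the day 8 pupae was nearly the same in each row. ASM replicate 3 was the lowest ASM pupa for all 4 rows, 10.4- to 13.8-fold below replicate 1, and ESM replicate 2 was the highest ESM pupa for all 4. The library of ASM replicate 3 was not shallow: it held 6561238 reads against 6149027 in replicate 1 and 9685611 in replicate 2. ESM replicate 1, the pupa without an Osiris read, was the shallowest of the day at 3143682 reads. The ASM mean of each row is thus a mean over pupae that differed by a factor of 10 or more.

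**Figure D1:**
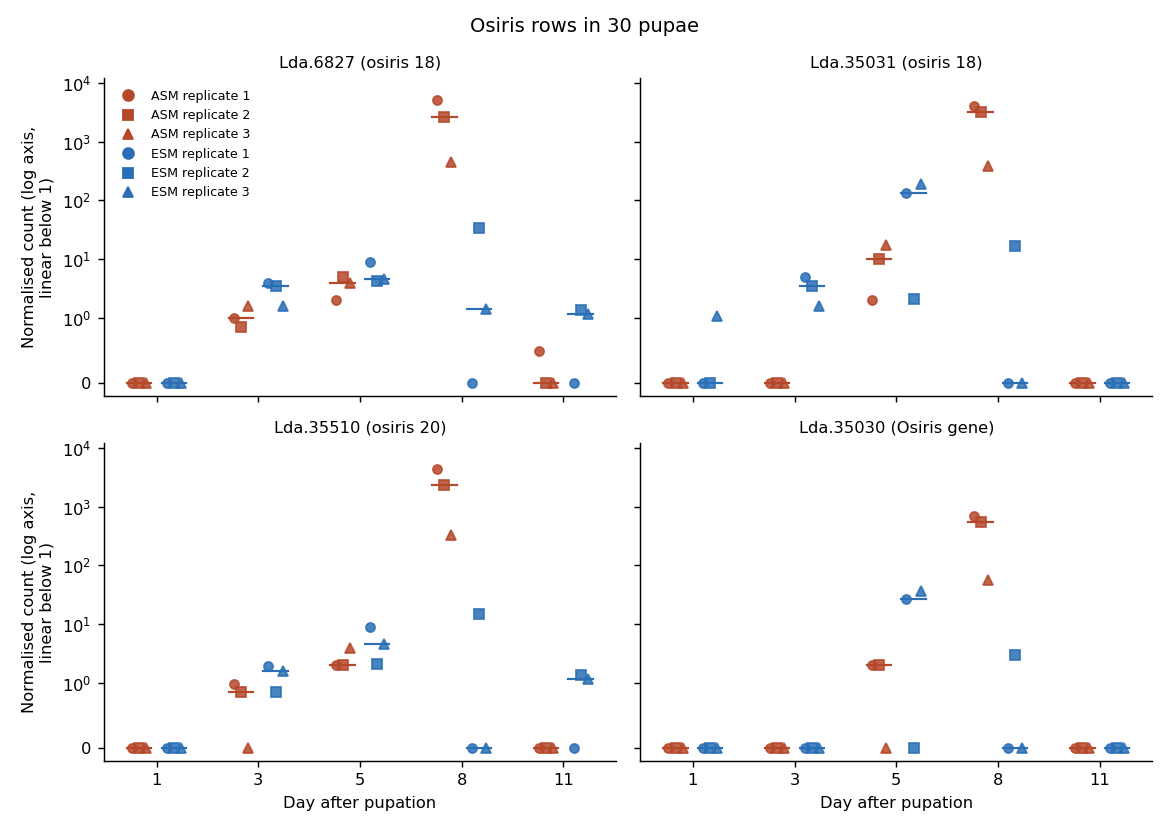
Normalised count of each Osiris row (log axis, linear below 1) against day after pupation, 1 point per pupa, with a bar at the median of the 3 pupae of a group. The ASM pupae of day 8 lie above all other points in every panel, and for osiris 18 at upper right and the unnumbered Osiris row the ESM pupae 1 and 3 of day 5 come next.

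Outside ASM day 8 the rows split into pairs. The 3 ASM libraries of day 8 held 99.3% of Lda.6827's reads and 99.5% of Lda.35510's, against 97.2% of Lda.35031's and 97.0% of Lda.35030's. On day 5, osiris 18 had 133, 2.08 and 187.4 in the ESM pupae and 2.03, 9.95 and 17.6 in the ASM pupae. The unnumbered Osiris row followed it there, with 27.0, 0 and 36.1 in ESM and 2.03, 1.99 and 0 in ASM. ESM replicates 1 and 3 were thus high for both rows, while replicate 2 lay among the ASM pupae, and the groups overlapped.

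The other osiris 18 row and osiris 20 did not share that day 5 signal. Lda.6827's day 5 values were 8.99, 4.16 and 4.52 in ESM and 2.03, 4.97 and 3.92 in ASM. Lda.35510's were 8.99, 2.08 and 4.52 in ESM and 2.03, 1.99 and 3.92 in ASM. No day 5 library held more than 5 reads of either row, so at this depth the strains could not be separated.

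Day 3 was close to the limit of detection. ESM pupae had 4.83, 3.44 and 1.58 of osiris 18, from 5, 4 and 1 reads, and the ASM pupae had none. The groups did not overlap, as at 14.6% of the 11584 genes for ESM above ASM. The highest day 3 value was 3.86 for the other osiris 18 row and 1.93 for osiris 20, and the unnumbered Osiris row had no read on that day. On day 1 there was 1 read of osiris 18 in 1 ESM pupa and no other Osiris read in 6 pupae. By day 11 osiris 18 and the unnumbered row had no read, and no library held more than 2 reads of the other rows.

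Ordered by group mean, ASM day 8 led for every row and did not overlap the group behind it. The next place belonged to ESM day 5 for osiris 18 (107 ± 95.2, SD, n = 3), the unnumbered row (21.0 ± 18.8, SD, n = 3) and osiris 20 (5.20 ± 3.51, SD, n = 3), and to ESM day 8 for the other osiris 18 row. In each row that group overlapped the group behind it. The lowest ASM pupa of day 8 was 2.08-fold the highest other pupa for osiris 18 and 1.57-fold for the unnumbered row, in both cases against ESM day 5 replicate 3. The median over the 4 rows of the ASM minus ESM difference was 10.4 VST units on day 8, and it was 0, -0.35, -1.22 and -0.12 on days 1, 3, 5 and 11. A VST unit is the unit of the deposited, variance-stabilised log2-type scale, on which a doubling is worth 0.849 at a normalised count of 10 and 1.51 at 100.

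Outside ASM day 8 the rows also correlated in these pairs, while the ratios of their reads did not all follow the pairs. The unnumbered row had 0.145 to 0.203 reads for each read of osiris 18 in the 5 pupae with at least 10 reads of both, which were the ASM pupae of day 8 and ESM pupae 1 and 3 of day 5. Their identifiers are adjacent, but no coordinates were used here to say how far apart they lie. Over the 27 pupae left after removal of ASM day 8, the VST values of these rows had a Pearson r of 0.94. The other osiris 18 row and osiris 20 also had an r of 0.94 there. Between rows of different pairs r was 0.46 to 0.74, with 0.59 between the osiris 18 rows, which carry the same name. These correlations are over pupae that share libraries and depth, and many of the values are at 0.

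**Figure D2:**
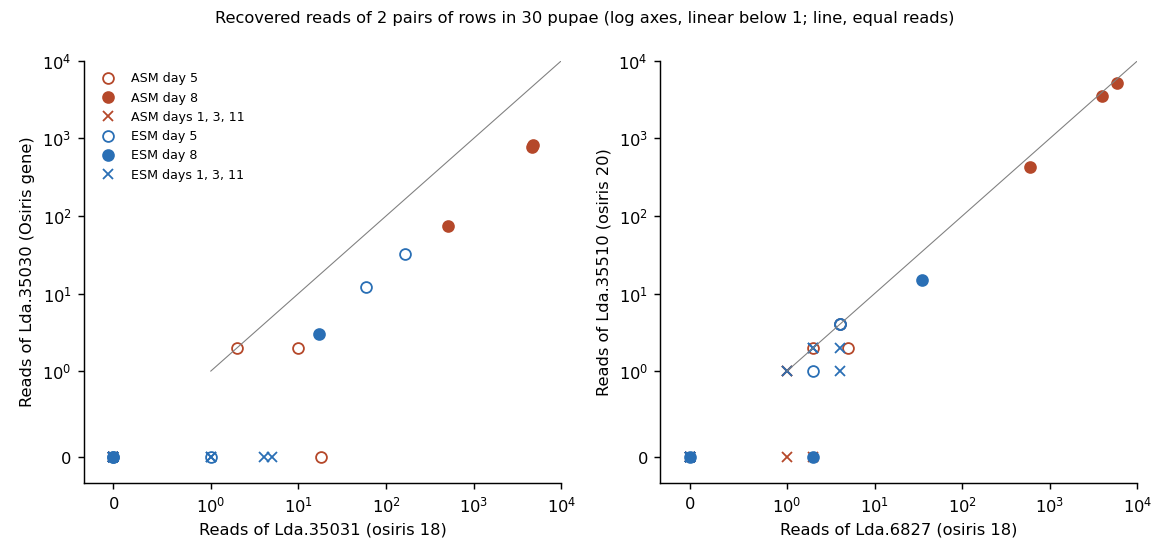
Recovered reads of the unnumbered Osiris row against osiris 18 (left) and of osiris 20 against the other osiris 18 row (right) in the 30 pupae, on log axes that are linear below 1, with a line at equal reads. Open blue points on the left at 59 and 166 reads of osiris 18 are the ESM pupae of day 5, which have no counterpart on the right.

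The other osiris 18 row and osiris 20 had equal, nonzero read numbers in 9 of the 17 pupae with reads of both, each time at 4 reads or fewer. In the ASM pupae of day 8 their ratio was not fixed, with 0.883, 0.902 and 0.721 reads of osiris 20 for each read of the other osiris 18 row. In ESM day 8 replicate 2, which also held at least 10 reads of both, the ratio was 0.429. For each read of osiris 18, of the other pair, osiris 20 had 1.1, 0.741 and 0.829 reads in those ASM pupae. In that ESM pupa it had 0.882, so the range across the pairs was the narrower. How the counting treated reads that match several Osiris genes was not given in the sources used here, so the low counts of related rows are uncertain.

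Averaged over the strains, none of the 4 rows passed the test between days 1 and 3, at limma adjusted p of 0.817 for osiris 18, 0.447 for the other osiris 18 row, 0.670 for osiris 20 and 1.0 for the unnumbered row. None had an unadjusted p under 0.05, and voom on the recovered reads called none. The spread in the main tests was pooled over all groups, with the wide day 8 spread of these rows included. A fit of the day 1 and day 3 libraries alone called the other osiris 18 row (0.67 VST units, adjusted p = 0.00159) and osiris 20 (0.40, adjusted p = 0.0157). Of all 19652 genes tested, 6.21% rose and 7.66% fell in that step.

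Between days 3 and 5, osiris 18 rose by 2.87 ± 0.78 VST units (SE, limma adjusted p = 0.00812), from means of -0.52 in ASM and 0.42 in ESM to 1.29 and 4.35. That is 1 of the 4 rows, while 12.3% of all genes rose and 10.8% fell. The unnumbered row differed by 1.46 ± 0.64 (adjusted p = 0.106), osiris 20 by 0.63 ± 0.49 (adjusted p = 0.406) and the other osiris 18 row by 0.53 ± 0.51 (adjusted p = 0.519), none of which passed. The call of osiris 18 did not hold in a fit of the day 3 and day 5 libraries alone (adjusted p = 0.0662) or with voom on the recovered reads (adjusted p = 0.112). Without ESM day 5 replicate 2, the unnumbered row was called as well (2.08 VST units, adjusted p = 0.0108).

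Between days 5 and 11, leaving out day 8, osiris 18 fell by 3.34 ± 0.78 VST units (SE, limma adjusted p = 0.00101). The other rows changed by -1.46 ± 0.64 (the unnumbered row, adjusted p = 0.0635), -0.99 ± 0.51 (the other osiris 18 row, adjusted p = 0.115) and -0.86 ± 0.49 (osiris 20, adjusted p = 0.152), and none passed. In that step 23.1% of all genes rose and 23.7% fell. Without ESM day 5 replicate 2 the unnumbered row was called (-2.08, adjusted p = 0.00479), and all 4 rows were called on the log2(normalised count + 1) scale. The median change over the 4 rows was 0.40, 1.04 and -1.22 VST units in the 3 steps, beside 0, -0.04 and -0.04 over all genes tested.

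Of the 11584 genes that reached a normalised count of 50 in at least 2 libraries, the 20 whose VST values were most like the mean of the Osiris rows had a Pearson r of 0.90 to 0.98 over the 30 pupae. They were picked for likeness to that profile, so their shared day 8 pattern is a description. None of the leading 3 has a description. Lda.11730's r was 0.98, with 2456, 1768 and 252.8 in the ASM pupae of day 8 and 3.04, 20.5 and 2.81 in the ESM pupae. Lda.3953's values were 4777, 3023 and 439.7 in ASM and 0, 27.3 and 2.11 in ESM. On the other days no follower exceeded a normalised count of 24.7 in any pupa. With Spearman's rho in place of Pearson's r, 1 of the 20 stayed in the list.

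The order of the day 8 pupae is part of the profile for which the followers were picked, so it is given as a description and nothing is read from its counts. In all 20, ASM replicate 3 was the lowest ASM pupa of day 8, with replicate 1 at 1.36- to 11.3-fold replicate 3. In 16 of the 20, ESM replicate 2 was the highest ESM pupa as well. Over the 11584 genes, both orders were met by 13.1%, and the median ratio of replicate 1 to replicate 3 was 1.01.

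**Figure D3:**
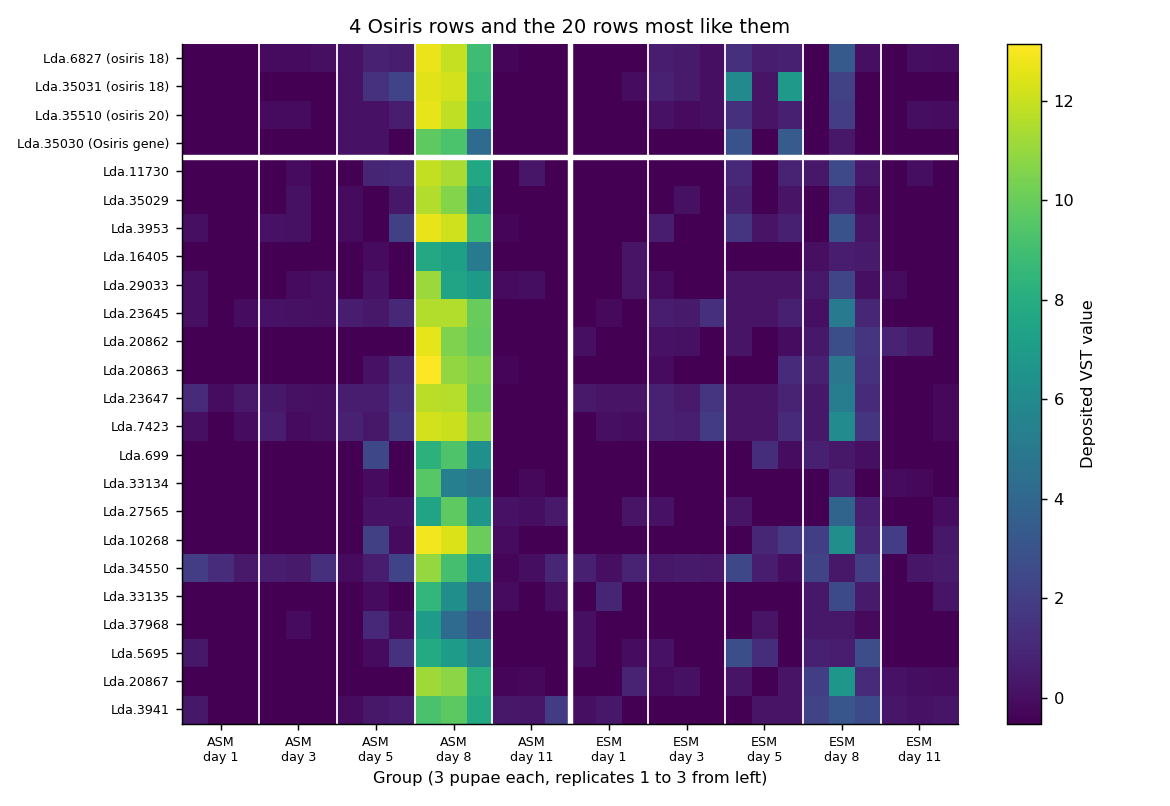
Deposited VST values of the 4 Osiris rows (above the white line) and the 20 rows most like their mean, in the 30 pupae ordered by strain, day and replicate. The bright block is ASM day 8, fading toward replicate 3, and ESM day 8 replicate 2 is the brightest ESM column of that day in 16 of the 20 rows.

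Only 2 of the 20 followers had a description, and both were catalases, enzymes that break down hydrogen peroxide. Lda.20862's values (r = 0.95) were 4571, 1037 and 733.2 in the ASM pupae of day 8 and 3.04, 24.4 and 10.6 in the ESM pupae. Lda.20867's (r = 0.92) were 1537, 1210 and 301.8 in ASM and 15.2, 176.4 and 7.73 in ESM. Neither had a read in the ASM pupae of days 1, 3 and 5, whereas each of those day 5 pupae held a few Osiris reads. Next among the described rows came choline dehydrogenase (r = 0.90), with 331.8, 213.6 and 420.6 in ASM and 12.2, 36.1 and 5.62 in ESM, and there ASM replicate 3 was the highest pupa.

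Lda.35029's profile was the second closest (r = 0.98), and its identifier comes just before that of the unnumbered Osiris row. It had 1996, 1080 and 176.2 in the ASM pupae of day 8 and 0, 6.82 and 0.703 in the ESM pupae. In ESM replicates 1 and 3 of day 5 it had 2 reads each, unlike its neighbours by identifier. The table gives it no description, and no name is given to it here. Of the 16 rows with identifiers within 5 of an Osiris row it was the only one with r above 0.9, and the other 15 ranged from -0.54 to 0.58.

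Of the 6 rows in the list of cuticle proteins, none was called between days 1 and 3, and 4 rose and none fell between days 3 and 5 (12.3% of all genes rose and 10.8% fell), with a median change of 6.93 VST units. Between days 5 and 11, 3 fell and 1 rose, beside 23.7% and 23.1% of all genes. The tweedle proteins, which form part of the insect cuticle, made up all 3 that fell. Lda.15281's description is tweedle motif 2, and it averaged 2051 ± 713 in ASM and 3110 ± 167 in ESM on day 5 (SD, n = 3 each). It rose by 9.75 ± 0.62 VST units between days 3 and 5 (SE, limma adjusted p = 1.27e-11) and fell by 12.31 ± 0.62 between days 5 and 11 (adjusted p = 2.11e-14).

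On day 8 the tweedle rows shared the lowest ASM pupa and the highest ESM pupa with the Osiris rows. Tweedle motif 2 had 4121, 2693 and 434.4 in the ASM pupae and 0, 51.7 and 1.41 in the ESM pupae. Lda.12768's values (tweedle motif 3) were 3544, 3480 and 1199 in ASM and 229.7, 477.5 and 136.4 in ESM. Lda.20030's, for a row described alike, were 4531, 4225 and 1506 against 301.3, 616.9 and 191.9. In all 3 rows ASM replicate 3 was the lowest ASM pupa and ESM replicate 2 the highest ESM pupa, as at 13.1% of the 11584 genes. The study named tweedle motif 2 in the same day 8 group as the Osiris rows, and the tweedle motif 3 rows ran nearly alike. The count is therefore a description. The tweedle rows thus had high levels on day 5 in both strains, where osiris 20 and the other osiris 18 row had 5 reads or fewer.

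The other cuticle rows did not meet both orders, though ESM replicate 2 was the highest ESM pupa in the first one given here. Lda.23652's description is a cuticle protein of the fall armyworm, and it appeared on day 8 in both strains, at 701.3, 5245 and 4441 in ASM and 870.3, 3698 and 1294 in ESM, and the groups overlapped. Pupal cuticle protein C1B averaged 10820 ± 9147 in ASM and 11360 ± 1666 in ESM on that day (SD, n = 3 each). It rose by 6.42 ± 0.81 VST units between days 5 and 11 (SE, limma adjusted p = 4.35e-07). A rigid cuticle protein (larval and pupal) had reads on day 1 only.

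**Figure D4:**
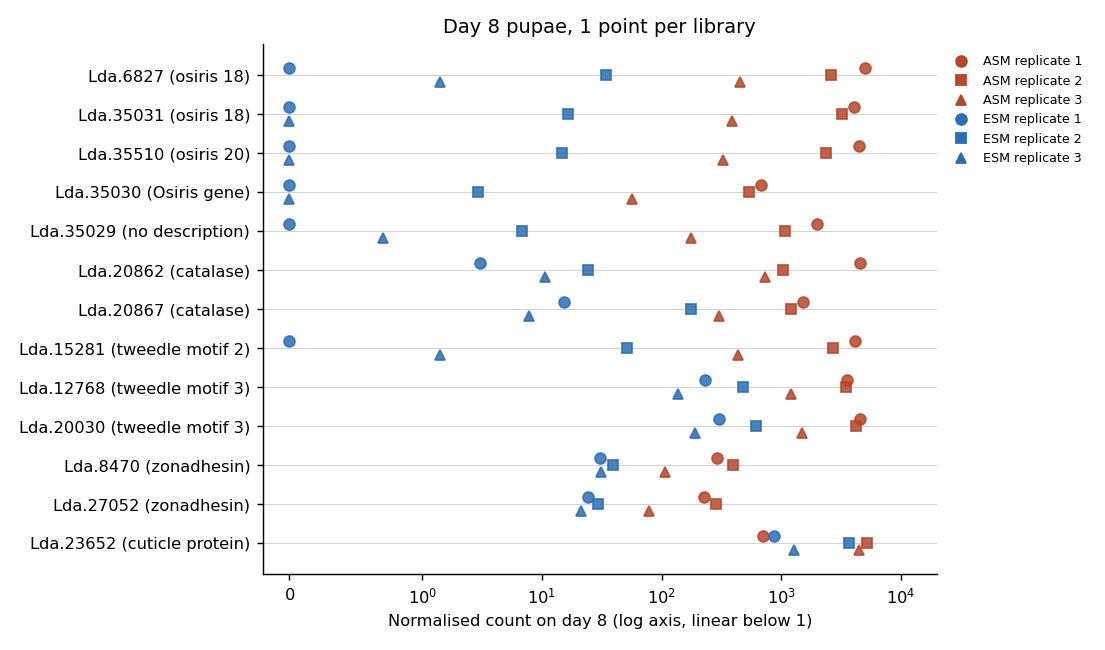
Normalised counts of the 6 pupae of day 8 (log axis, linear below 1) for the Osiris rows and for some of the other rows named in the text. There is 1 point per pupa, with the replicates of a row set slightly apart. ASM replicate 3 is the leftmost red point in every row drawn except the lowest, a cuticle protein for which the strains overlap. Choline dehydrogenase and pupal cuticle protein C1B, in which ASM replicate 3 was not the lowest ASM pupa, were not drawn.

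Among the other genes of the same day 8 group, the zonadhesin rows, named after a sperm protein of mammals, separated the strains by less. Lda.8470's values were 293.3, 393.9 and 107.3 in ASM and 30.4, 39.0 and 30.9 in ESM on day 8, and up to 207.4 in an ESM pupa of day 3. Lda.27052's were 225.0, 283.4 and 78.1 in ASM and 24.3, 29.2 and 21.1 in ESM. Averaged over the strains, both rose between days 1 and 3 (by 2.32 ± 0.68 and 2.06 ± 0.60 VST units, SE, limma adjusted p = 0.0218 and 0.0210). In the ESM pupae of day 3 they had 125.5, 207.4 and 6.33, and 110.1, 147.2 and 6.33, so replicate 3 stayed low. The ASM means went from 2.73 to 8.98 and from 2.46 to 5.08. Takeout, of a family of carriers of small lipophilic molecules, had no read from day 5 on. It fell by 8.13 ± 0.63 units between days 1 and 3 and by a further 2.17 ± 0.63 between days 3 and 5 (adjusted p = 2.37e-09 and 0.0130). These changes are averages over the strains. The ESM pupae already had no read of takeout on day 3, so the second fall was in ASM alone (mean VST 3.83 to -0.52). Over the 5 rows of this list 2 rose and 1 fell in the first step, 1 fell in the second and none was called in the third. Over all genes, 6.21% rose and 7.66% fell in the first step, 12.3% and 10.8% in the second, and 23.1% and 23.7% in the third.

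Of the 3 rows for hormone response, 1 rose and 1 fell between days 1 and 3, 2 rose between days 3 and 5, and 2 fell between days 5 and 11, steps in which 6.21% and 7.66%, 12.3%, and 23.7% of all genes did so. E75, a nuclear receptor induced by the moulting hormone ecdysone, averaged 5275 ± 2488 in ASM and 3783 ± 1581 in ESM on day 5 and 1510 ± 245 and 1018 ± 173 on day 8 (SD, n = 3 each). It rose by 0.72 ± 0.21 VST units between days 3 and 5 and fell by 1.79 ± 0.21 between days 5 and 11 (SE, limma adjusted p = 0.0127 and 1.31e-07). HR38, a related receptor, fell by 6.18 ± 0.55 between days 1 and 3 and rose by 4.12 ± 0.55 between days 3 and 5 (adjusted p = 1.61e-08 and 3.26e-06). On day 8 HR38 averaged 12.8 ± 7.50 in ASM and 10.9 ± 2.96 in ESM. The juvenile hormone-suppressible protein was not called in any of the 3 steps.

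The reference genes showed no day 8 gap of that size. Actin averaged 33380 ± 12640 in ASM and 33390 ± 5778 in ESM on that day, GAPDH 1445 ± 325.5 and 1467 ± 400.5, and gamma-tubulin 150.4 ± 6.29 and 172.5 ± 1.82 (SD, n = 3 each). Elongation factor 1 gamma averaged 6276 ± 1203 and 3611 ± 431 (SD, n = 3 each). The strains did not overlap in the last rows named, with gamma-tubulin higher in ESM and elongation factor higher in ASM. Of these 4 rows 1 fell in the first step, 1 in the second and 2 in the third, beside 7.66%, 10.8% and 23.7% of all genes.

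The position of the day 8 pupae along 1 of the first principal components of the transcriptome had the order of their Osiris levels. Principal components were taken over the 5000 most abundant genes other than the Osiris rows and their 20 followers, and the first held 45.8% and the second 20.1% of the variance. On day 8 the strains overlapped on the first (57.4 to 65.2 in ASM and 59.2 to 65.6 in ESM). The second, on which the strains did not overlap on day 8, was chosen after its values were seen. It set day 5 (-66.1 to -59.3) apart from day 11 (18.8 to 32.6), and so did the first (-30.9 to 4.1 and 64.8 to 70.2). Day 1 lay beyond day 11 on the second (36.2 to 43.1), so this component is not a scale of time. On day 8 the ASM pupae stood at -16.9, -12.4 and -7.4 (replicates 1, 2 and 3) and the ESM pupae at 5.9, -1.5 and 4.9. All 6 thus lay between the ranges of day 5 and day 11, with every ASM pupa closer to day 5 than every ESM pupa. Over all days the component did not follow the Osiris rows, since the pupae of day 5 were the most extreme while the mean VST value of the 4 rows was 0.11 to 2.9 there, against 7.48 to 11.9 in the ASM pupae of day 8.

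Along this component the day 8 pupae had the order of the Osiris rows and of tweedle motif 2, with ASM replicate 3 nearest to ESM and ESM replicate 2 nearest to ASM. On day 3 the ESM pupae (-28.6, -26.5 and -3.8) stood nearer to day 5 than the ASM pupae (23.0, 16.3 and 13.9). Only those ESM pupae held reads of osiris 18 on that day, but the other rows did not share this. The other osiris 18 row had 1, 1 and 2 reads in the ASM pupae and 4, 4 and 1 in the ESM pupae. Lda.35510's row had 1, 1 and 0 against 2, 1 and 1, and the unnumbered row had no read in either strain. On day 5 osiris 18 was highest in ESM replicates 1 and 3 and ASM replicate 3 (at -66.1, -65.4 and -65.8). The other day 5 pupae were at -61.7 to -59.3. Lda.35510's row was highest in the same pupae, at 4 reads in each. The unnumbered row was also highest in ESM replicates 1 and 3, but had no read in ASM replicate 3. It had 2 reads in each of the other ASM pupae. The other osiris 18 row had its second highest value (4.97) in ASM replicate 2, at -59.4. On day 11 the strains did not overlap on the component either (18.8 to 30.9 in ASM and 31.3 to 32.6 in ESM). The Osiris rows held few or no reads on that day. A difference between the strains in level at the same stage and a difference in the time at which a stage is reached cannot be told apart with 5 sampling days, and the part of the component in the Osiris differences was not tested.

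**Figure D5:**
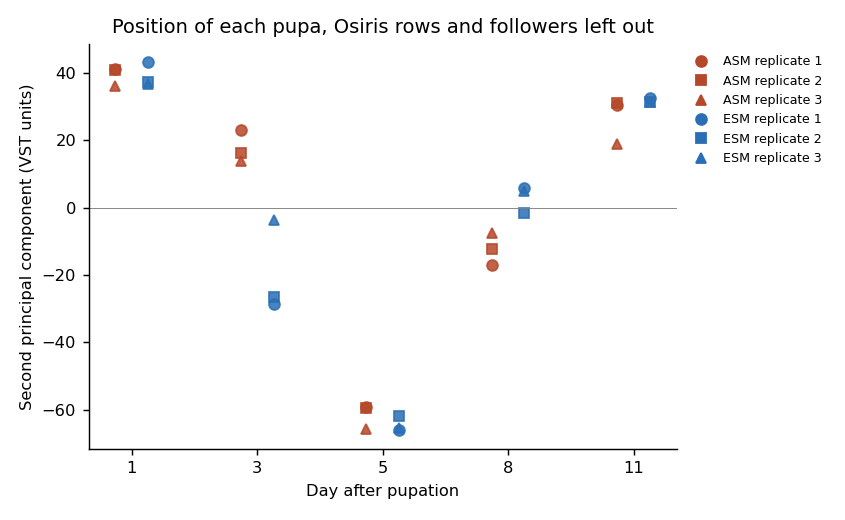
Second principal component of the 5000 most abundant genes, without the Osiris rows and followers, against day after pupation, 1 point per pupa. The strains overlap on days 1 and 5. On days 3, 8 and 11 every ASM pupa is apart from every ESM pupa, above on day 3 and below on days 8 and 11.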

How the data were processed

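The deposited table holds variance-stabilised expression of 19654 genes in 30 libraries, a log2-type value that the authors made with DESeq2 1.28.1 from featureCounts 2.0.0 counts, after trimming with Trimmomatic 0.36, alignment to the draft ASM genome and removal of iflavirus content. Whether counting used strand was not given in the sources used here. A count of 0 has the value -0.52 in every library. The curve shared by all libraries was inverted to recover reads, of which 99.92 to 100.0% per library came out within 0.05 of a whole number, and size factors of 0.4447 to 2.0599.

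Changes between days, averaged over the strains, were tested on the deposited log2-type values (limma 3.58.1, R 4.3.3) with 10 group means, a variance trend and Benjamini-Hochberg adjustment over the 19652 genes that had a read in at least 3 libraries. Genes were called at an adjusted p under 0.05. The p-values rest on 1 spread per gene, that of the pupae around their group means, pooled over all 10 groups. Day 8 is among these groups, so the day 8 spread of the Osiris rows entered the tests of the other days. The fit was tested on simulated data. Named genes were the Osiris rows, the 20 rows with the highest Pearson r to their mean, the 10 highest among 489 described rows, lists of cuticle, day 8, hormone and reference genes, and rows with identifiers within 5. The members and lists were chosen with earlier results of these data known. Alternatives were voom on recovered reads, log2(normalised count + 1), other filters, a shift of each library to 1 median, no variance trend, the libraries of the days compared alone, a replicate block and leaving out each pupa. Python 3.11.15 was used for the other steps.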

Additional observations from a re-analysis of the deposited data

How the results depend on the processing

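The call of osiris 18 from day 5 to 11 held in every alternative run, and its call from day 3 to 5 was lost with voom and with the day 3 and day 5 libraries alone. Fits of the libraries of the days compared alone called the other osiris 18 row (adjusted p = 0.00159) and osiris 20 (0.0157) from day 1 to 3, osiris 20 (0.0425) from day 3 to 5, and both (0.00122 and 0.00466) from day 5 to 11. On the log2(normalised count + 1) scale the unnumbered Osiris row was called from day 3 to 5 (0.0155), and the other osiris 18 row (0.00865), osiris 20 (0.0138) and the unnumbered Osiris row (0.0075) from day 5 to 11. With every library shifted to the same median the unnumbered Osiris row was called in that step (0.0466). Leaving out a pupa gave osiris 18 changes of 2.24 to 3.91 from day 3 to 5 and -4.38 to -2.71 from day 5 to 11. No Osiris row is above the lowest value in all 30 libraries, so that filter gave no value. The median ASM minus ESM difference was 9.59 to 11.66 without each day 8 pupa in turn. It was 0.08 on day 1 with the median shift, and -0.75 and -0.29 on days 3 and 11 on the log2(normalised count + 1) scale. Spearman's rho kept 1 of the 20 followers, leaving out day 8, for which they had been picked, kept 0, and the other choices kept 18 and 19. With the replicate block the genes called were 2769, 4569 and 9199 in the 3 steps, against 2725, 4555 and 9202 without it, and it changed no call of an Osiris row. Pupae with the same number had a median correlation of deviations of 0.01 over 135 pairs (-0.01 over 270 pairs of different number), so the numbers were not taken to pair them. Reads of 0 to 5 in most libraries limit what can be said of the Osiris rows outside day 8.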
